A study of Saccharomyces cerevisiae with 3 samples.

Results

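Of the 6858 positions of the yeast 35S rRNA gene, 931 close a U-rich stretch: at least 5 of the 10 bases that end at the position, the position itself included, are U, and windows with 5 U and 5 G are left out. The rule used the base sequence alone and no occupancy value, but it was chosen with earlier results of these data known. The 10-base window was complete at 6849 positions, so that 5918 others served for comparison, among them the 8 with 5 U and 5 G. Windows of neighbouring positions share bases, and a single read belongs to a single position, so the 931 positions are not replicates of each other. All comparisons were therefore made within each of 3 *hmo1Δ* replicates.

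The libraries were native elongating transcript sequencing (NET-seq) of RNA polymerase I (Pol I) from 3 cultures of *hmo1Δ* yeast. That strain carried a histidine- and HA-tagged second-largest Pol I subunit, (His)7-(HA)3-RPA135::TRP1, together with hmo1Δ::URA4, and the WT strain carried the same tagged subunit with *HMO1* intact. Both strains were grown in rich YEPD medium to early log phase, and Pol I was immunoprecipitated with its nascent RNA after cryogenic lysis. WT enters here only as the authors' median column, printed without n or SD. Its libraries belong to a different series, so strain and series are confounded and cannot be told apart.

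Pol I makes a single long precursor from the rDNA. The 18S, 5.8S and 25S rRNAs are cut out of it, and the external (ETS1, ETS2) and internal (ITS1, ITS2) transcribed spacers are discarded. NET-seq sequences the 3′ end of RNA held by the enzyme, so each read marks the last base that was added, and the count at a position follows how often Pol I was found there. Behind that base the new RNA is paired with the DNA template for a short distance. U in the RNA paired with A in the template makes one of the weakest hybrids, and U-rich RNA is a known element of terminators of several polymerases. Hmo1 is an HMG-box protein that binds the transcribed rDNA.

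The sequences that close these positions are shown first, because the comparisons rest on them. All are RNA, 5′ to 3′, read from the base column of the deposited table, and lie on the minus strand of chromosome XII in assembly R64, where the gene matches *RDN37-2* in RefSeq, chrXII:460712-467569. Numbered positions count from 1 at the 5′ end of the transcript. In the first set capitals mark the positions that qualify, and the lower-case bases before them complete the first window. The numbered range there is that of the capitals, and the chromosome range covers the whole sequence shown. They comprise the 3 longest stretches and, among stretches of 5 or more positions, the other 2 with the highest occupancy, the 3 that rose most from WT and the 3 that fell most.
ETS1 658 to 698, chrXII:466872-466921: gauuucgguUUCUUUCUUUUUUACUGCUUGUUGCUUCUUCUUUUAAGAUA
25S to ETS2 6636 to 6667, chrXII:460903-460943: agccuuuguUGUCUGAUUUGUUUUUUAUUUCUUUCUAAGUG
ETS1 65 to 84, chrXII:467486-467514: gcuugucguUCGUUAUGUUUUUGUAAAUG
ITS2 3022 to 3027, chrXII:464543-464557: gucauuuccUUCUCA
25S 6555 to 6560, chrXII:461010-461024: aaucauuugUAUACG
ETS2 6775 to 6794, chrXII:460776-460804: cauguauugUAUAUAUCUAUUAUAAUAUA
ITS2 3090 to 3095, chrXII:464475-464489: gccuuuucaUUGGAU
ITS2 3122 to 3126, chrXII:464444-464457: agguuucucUGCGU
18S 833 to 838, chrXII:466732-466746: auaguuccuUUACUA
18S 1616 to 1625, chrXII:465945-465963: auucuuggaUUUAUUGAAG
18S 1887 to 1891, chrXII:465679-465692: ggcuuaauuUGACU

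The second set holds 5 of the 7 uninterrupted runs of 6 or more U in the gene, with the run in capitals and 10 bases on either side. The longest were taken, with ties settled by the lower coordinate, so that the runs left out also have 6 U. The coordinates are those of the run.
ITS2 3097 to 3104, chrXII:464466-464473: ucauuggaugUUUUUUUUccaaagagag
18S 1754 to 1760, chrXII:465810-465816: ucggguggugUUUUUUUaaugacccac
ITS1 2528 to 2534, chrXII:465036-465042: ugaaaauggaUUUUUUUguuuuggcaa
ITS2 3182 to 3188, chrXII:464382-464388: gcggcuaaucUUUUUUUauacugagcg
ETS1 665 to 670, chrXII:466900-466905: gguuucuuucUUUUUUacugcuuguu
The sequence around the T1 terminator, the last position included in the authors' scaling to a fixed total, is given with T1 itself in capitals, since T1 closes a U-rich stretch.
ETS2 around T1, chrXII:460801-460861: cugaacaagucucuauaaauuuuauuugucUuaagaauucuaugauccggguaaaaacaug

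U-rich stretches were common in the spacers and scarce in the mature rRNAs. They closed at 70 of the 211 positions of ETS2 (33.2%), 116 of the 361 of ITS1 (32.1%), 73 of the 232 of ITS2 (31.5%) and 127 of the 700 of ETS1 (18.1%). The shares were 12.7% in 18S (229 positions), 8.95% in 25S (304) and 7.59% in 5.8S, where only 12 positions qualified. The positions formed 198 stretches with a median length of 3, of which 70 held a single position and 69 held 5 or more. The windows averaged 5.62 U and 1.57 G, against 2.35 U and 2.80 G at the other positions. U was the last base at 521 of the 931 (56.0%), G at 149, A at 142 and C at 119.

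Occupancy was deposited in RPM, reads scaled to a fixed total, and the value of a single read, recovered from the smallest step between values, put the reads on the 35S table at an estimated 3704662.5, 1985964 and 2813120 for replicates 1, 2 and 3. Within 0.01 of a read, 99.93, 100 and 99.97% of the values were whole multiples of that step, and the fractions of a read in the sums come from the rest. The U-rich-stretch positions held 350720, 162749 and 261849.5 of these, with medians of 239, 120 and 167 reads per position, for which counting error alone is 6.47, 9.13 and 7.74%. Values of 0 occurred at 3, 9 and 4 of these positions, and a count of 0 allows up to 0.811, 1.51 and 1.07 RPM. These limits cover counting error only.

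Pol I occupancy was lower where a U-rich stretch ended than elsewhere in the same region, and more so in *hmo1Δ* than in the WT median. Over the gene the 931 positions had median occupancies of 64.6, 60.5 and 59.4 RPM in the 3 *hmo1Δ* replicates, and the others had 114.0, 112.9 and 107.8 RPM. The WT medians were 61.4 and 99.2 RPM. These medians mix regions of different level, so the difference was taken on log2(RPM + 1) inside each of 7 regions and averaged with the number of U-rich-stretch positions as weights. It was -0.54, -0.73 and -0.59 in the replicates, a mean of -0.62 ± 0.10 (SD, n = 3), or 0.650-fold on that scale, and -0.21 in the WT median. All 3 replicates lay below 0 and below WT. A two-sided exact sign-flip test over 3 replicates cannot give a p under 0.25, so the statement rests on the spread between replicates. Replicate 2, the library with the fewest reads, was the lowest. Of the 931 positions 545 lie in mature rRNAs, where the study states that such libraries also hold mature rRNA. Its part in the result was not tested, and the difference was -0.40 in the 3 mature rRNAs and -0.93 in the 4 spacers.

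A U-rich window is poor in G, and the difference was smaller once G was held equal. The positions with 5 or more G and fewer than 5 U in the same window, 675 in number, were compared with all remaining positions, U-rich ones included. They were higher by 0.89 ± 0.10 (SD, n = 3) on the same scale (WT 0.49). The 779 A-rich ones, compared in the same way, differed by only 0.03 ± 0.08 (WT 0.06). When U-rich-stretch positions were compared only with others of equal G number, a comparison added after the data were seen, the level difference shrank to -0.26, -0.39 and -0.25 in the replicates, a mean of -0.30 ± 0.08, and to -0.04 in WT. Windows with no G stood at the same level with and without the U-rich stretch. Relative to the median of their region, 156 U-rich-stretch positions without G lay at -0.61 ± 0.16 and 260 others without G at -0.61 ± 0.06. The gap was widest with 2 G in the window, at -0.57 ± 0.11 for 310 U-rich-stretch positions and -0.08 ± 0.03 for 1472 others. With 1 G the levels were -0.49 ± 0.13 for 294 U-rich-stretch positions and -0.34 ± 0.04 for 801 others. With 3 G they were -0.32 ± 0.06 (138 positions) and 0.05 ± 0.04 (1576), and with 4 G 0.18 ± 0.13 (33) and 0.36 ± 0.06 (1126).

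With all positions counted the level was lower in every region, and its size varied. In ETS1, at the start of the transcript, the differences were -1.35, -1.44 and -1.47 in the replicates (mean -1.42 ± 0.06) and -0.81 in WT. Median occupancies there were 15.7, 16.1 and 12.1 RPM where a U-rich stretch ended, against 41.6, 45.4 and 35.2 RPM at other positions. ITS1 followed with -0.93 ± 0.14 (WT -0.48). In 18S, the small-subunit rRNA, the difference was -0.47 ± 0.13 (WT -0.07), and in 25S, the large-subunit rRNA, it was -0.35 ± 0.16 (WT -0.01), so that in the WT median the 304 positions of 25S stood at the level of their neighbours. ITS2 had -0.39 ± 0.12 (WT -0.14). The 12 positions of 5.8S had -0.40 ± 0.16 with WT at -0.48, and 5.8S was the only region in which the replicates did not all lie below WT (1 of 3 did). The order of the regions depended on which positions were counted. With 1 position in 10 ETS1 stood at -0.38, and ITS2 at -0.87 with 1 position in 10, -1.15 with 6 or more U and -0.70 against others at least 10 positions away.

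**Figure D1:**
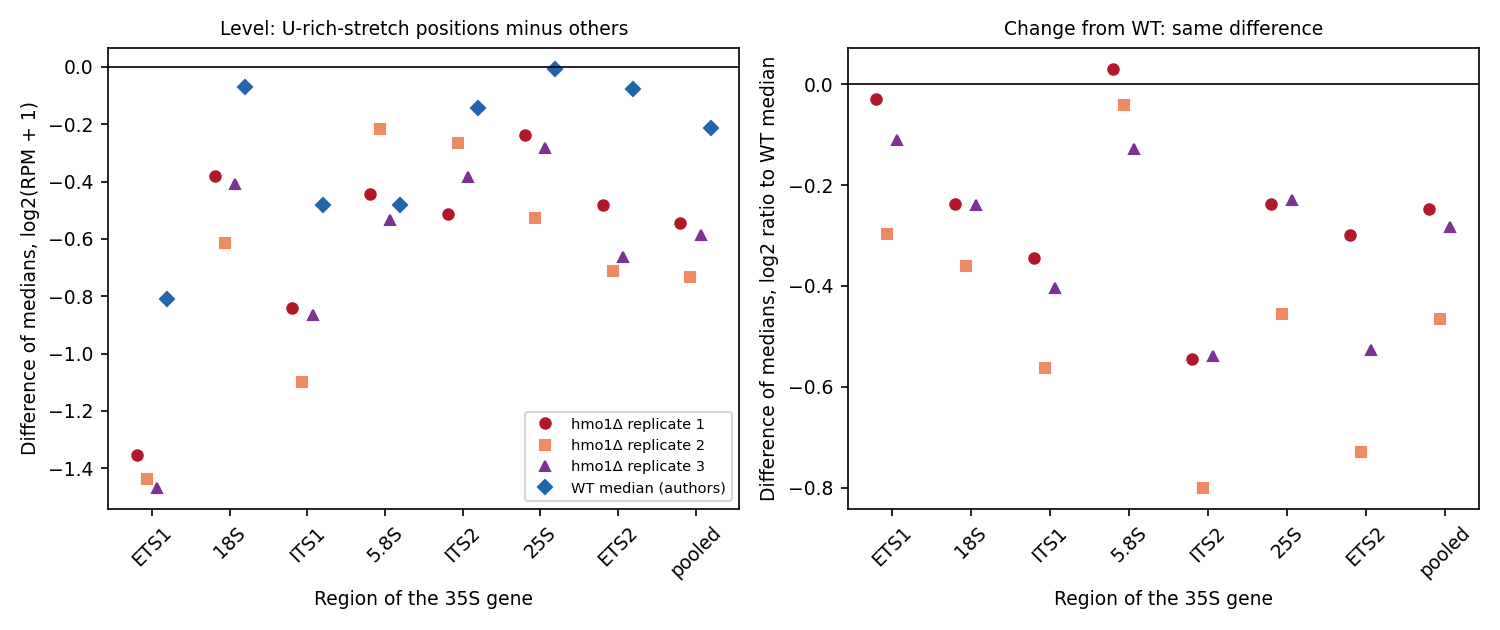
Left, difference of median log2(RPM + 1) between positions that end a U-rich stretch and the other positions, by region of the 35S gene and pooled with the number of U-rich-stretch positions as weights. Right, the same difference for the log2 ratio to the WT median; circles, squares and triangles are *hmo1Δ* replicates 1 to 3 and diamonds the authors' WT median. In the left panel all replicates lie below 0, from -1.47 in ETS1 to -0.21 in 5.8S, and below the WT diamond in every region but 5.8S.

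ETS2, which begins at the 3′ end of 25S and runs past T1, stood out. Its difference was -0.62 ± 0.12 with WT at -0.08, but without the positions after T1 it turned to 1.04, an alternative added after the data were seen. Of the 70 U-rich-stretch positions of ETS2, 39 were among the 119 positions after T1, where their median occupancies were 3.24, 1.51 and 2.49 RPM (WT 0.907). Those up to T1 included T1 itself and position 6662, both described with the single positions. The U-rich-stretch positions held 60.0, 50.8 and 63.3% of all ETS2 occupancy in the replicates, and 70.3% in WT, from 33.2% of its positions.

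Over the whole gene the share of occupancy was below the share of positions. There 13.6% of positions carried 9.47, 8.19 and 9.31% of the occupancy, a mean of 8.99 ± 0.69%, against 10.2% in WT. In ITS2, with 31.5% of positions, the share was 31.2 ± 1.72% against 44.2% in WT. It was 17.5 ± 1.10% against 19.7% in ITS1 and 7.34 ± 0.61% against 9.29% in 25S. Among the 931 positions 5.59, 3.33 and 5.05% were in the top 10% of their region, and 7.84% in WT.

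The change from WT was lower where a U-rich stretch ended than at other positions of the same region. On the log2((RPM + 1)/(WT median RPM + 1)) scale the pooled difference was -0.25, -0.47 and -0.28, a mean of -0.33 ± 0.12 (SD, n = 3), or 0.794-fold. Against others of equal G number it was -0.13, -0.26 and -0.17, a mean of -0.19 ± 0.07. Each compared with all remaining positions, G-rich positions differed in the other direction, by 0.34 ± 0.08, and A-rich positions by -0.01 ± 0.07. All 3 replicates lay below 0 in ITS2 (-0.63 ± 0.15), ETS2 (-0.52 ± 0.22), ITS1 (-0.44 ± 0.11), 25S (-0.31 ± 0.13), 18S (-0.28 ± 0.07) and ETS1 (-0.15 ± 0.14). In ETS1 the SD was nearly as large as the mean, with -0.03 in replicate 1 and -0.30 in replicate 2, and without replicate 2, or without the first and last 10 positions of each region, it was -0.07. In 5.8S the difference was -0.05 ± 0.08.

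The direction of the change itself depended on the region. In 3 spacers U-rich-stretch positions were above WT, less so than their neighbours. The median log2 change was 0.75 ± 0.13 in ITS1 against 1.18 ± 0.04 at other positions, 0.67 ± 0.11 against 1.30 ± 0.06 in ITS2, and 0.66 ± 0.29 against 1.18 ± 0.09 in ETS2. In the mature rRNAs they were below WT, with -0.37 ± 0.07 against -0.09 ± 0.03 in 18S and -0.26 ± 0.12 against 0.05 ± 0.02 in 25S. In ETS1 the median was 0.08 ± 0.10 against 0.23 ± 0.14, and replicate 3 alone was below 0 there, at -0.01.

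Counted one position at a time, 332 of the 931 (35.7%) had all 3 replicates above the WT median, where the share over all 6849 positions was 44.2%. All 3 replicates were below it at 425 (45.6%), where the share over all positions was 37.2%. The split depended on scaling. With each region set to its own total the counts became 225 above (24.2%, with 41.8% over all positions) and 514 below (55.2%, with 38.9%). At 1.5-fold or more, 171 (18.4%) were above in every replicate, against 21% of all positions, and 99 (10.6%) below, against 7.42%.

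Apart from 5.8S, the shares differed most in the 18S and 25S rRNAs. In 5.8S, with only 12 U-rich-stretch positions, 8.33% were above WT in all replicates against 34.2% of the others. There 33.3% were below, against 53.4% of the others. In 25S 197 of 304 U-rich-stretch positions (64.8%) were below WT in all replicates and 49 (16.1%) above, where the other positions had 35.1% below and 43.9% above. In 18S 157 of 229 (68.6%) were below, with 47.1% of the others. In the spacers fewer U-rich-stretch positions than others were above WT. The shares above were 70.7% against 84.5% in ITS1, 72.6% against 87.4% in ITS2, 71.4% against 83.0% in ETS2 and 41.7% against 50.2% in ETS1. The shares below WT were higher than among others in ETS1 (37.0% against 30.7%) and ITS2 (10.96% against 6.92%), and lower in ITS1 (9.48% against 11.02%) and ETS2 (1.43% against 4.96%). These shares are those of the deposited scaling.

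**Figure D2:**
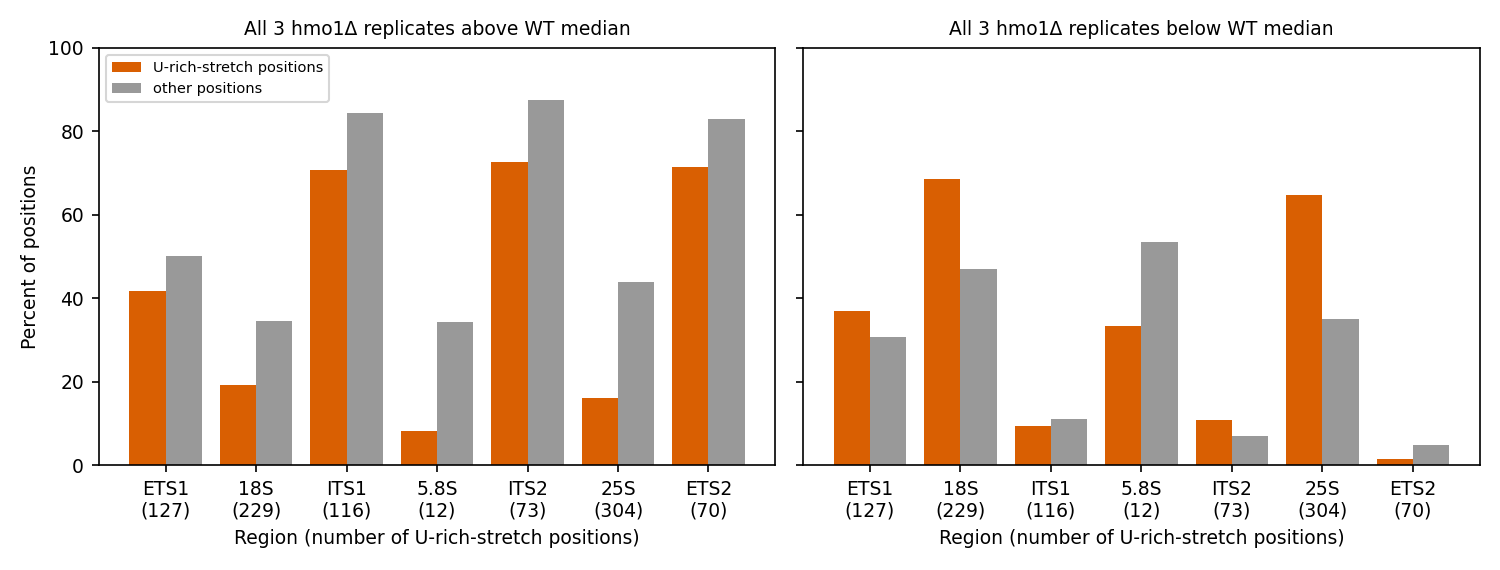
Percent of positions with all 3 *hmo1Δ* replicates above (left) or below (right) the authors' WT median, by region, for positions that end a U-rich stretch (orange, number in brackets) and the other positions of the region (grey). In 25S 64.8% of the orange positions are below WT against 35.1% of the grey ones, and in ITS2 72.6% are above against 87.4%.

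Occupancy declined with the number of U in the window, also below the threshold of 5. Relative to the region median of log2(RPM + 1), the *hmo1Δ* mean was 0.53 ± 0.05 at 340 positions with no U, 0.29 ± 0.03 with 1 U, 0.10 ± 0.02 with 2 and -0.02 ± 0.01 with 3. The 1106 positions with 4 U, just outside the rule, stood at -0.26 ± 0.01, and the 548 with 5 U, just inside it or left out for their 5 G, at -0.47 ± 0.07. Values were -0.47 ± 0.15 with 6 U and -0.64 ± 0.14 with 7 U. The order ended there, since the 34 positions with 8 U stood at -0.30 ± 0.11 and the 7 positions with 9 U at -0.13 ± 0.11. In the WT median the range was narrower, from 0.20 with no U to -0.08 with 4 U, -0.13 with 5 U and -0.16 with 6 U. There the order ended at 6 U, with -0.09 at 7 U, 0.06 at 8 U and 0.18 at 9 U. The change from WT, centred in the same way, went from 0.31 ± 0.07 with no U through -0.11 ± 0.02 with 4 U to -0.24 ± 0.07 with 5 U and -0.29 ± 0.10 with 6 U. It fell no further with more U, at -0.29 ± 0.14 with 7 U, -0.18 ± 0.12 with 8 U and -0.28 ± 0.10 with 9 U.

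**Figure D3:**
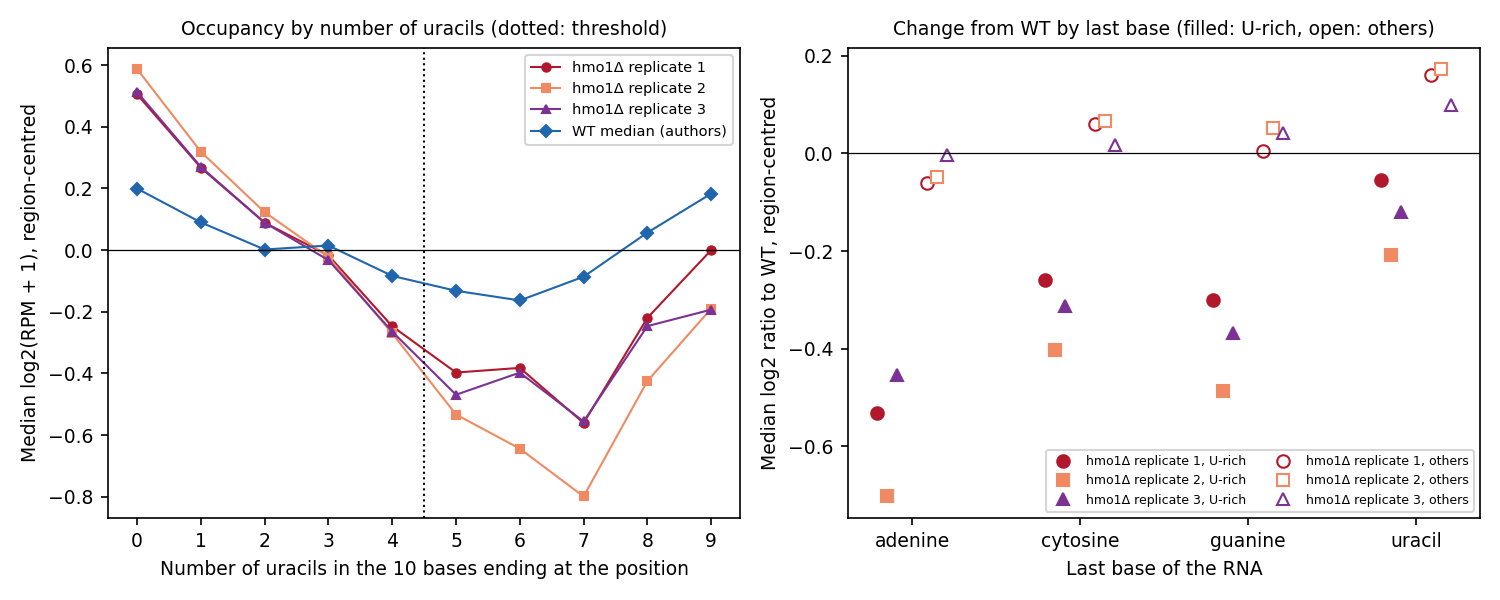
Left, median log2(RPM + 1) minus the region median by number of U in the 10 bases, for each *hmo1Δ* replicate and the WT median, with the threshold dotted. Right, median log2 ratio to the WT median minus the region median, by last base, for U-rich-stretch positions (filled) and others (open) in each replicate. The *hmo1Δ* lines fall from 0.50 to 0.59 without U to -0.80 to -0.56 with 7 U, and the filled symbols are lowest for adenine, from -0.70 to -0.45.

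Because U was the last base at 56.0% of these positions, the last base was examined apart from the stretch. Against others with the same last base in the same region, the change from WT was lower by -0.59 ± 0.14 for A, -0.49 ± 0.11 for G, -0.38 ± 0.11 for U and -0.37 ± 0.07 for C (SD, n = 3). The corresponding levels were -1.05 (WT -0.30) for A, -0.59 (WT -0.11) for G, -0.49 (WT -0.06) for U and -0.33 (WT 0.10) for C. All 3 replicates had the same sign in each of these pooled values. Averaged over the last bases, a comparison added after the data were seen, the level difference was -0.52, -0.68 and -0.51 and the change -0.36, -0.56 and -0.37. The pooled difference was thus also present where the last base was not U, but not every region shared it. For RNAs that ended in C the level was higher in ITS2 (0.58, 8 positions) and ETS2 (0.61, 6 positions), for those that ended in G in ETS2 (0.46, 5 positions) and slightly in ITS2 (0.08, 13 positions), and for those that ended in U in 5.8S (0.16, 6 positions). In ETS1 the change for C was -0.06, with replicates 1 and 2 above 0.

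U-rich stretches that ended in A contained the deepest losses. Of the 99 positions at least 1.5-fold below WT in all replicates 36 ended in A, 25.4% of the 142 with that end, and 28 ended in U, 5.37% of 521. The rest were 23 that ended in G, 15.4% of 149, and 12 that ended in C, 10.1% of 119. Among other positions the shares were 9.39% for A, 7.37% for G, 5.25% for C and 4.72% for U. Of the 171 at least 1.5-fold above WT, 123 ended in U, which is 23.6% of the U-rich-stretch positions with that end, against 26.7% of other positions with it. In ETS1 the 22 positions that ended in A had median occupancies of 8.11, 8.57 and 8.36 RPM in the replicates and 23.9 RPM in WT. None of them was 1.5-fold above WT in all replicates and 12 were 1.5-fold below, while of the 170 other ETS1 positions that ended in A 26.5% were above and 22.9% below. Those others had medians of 58.5, 60.7 and 55.2 RPM, and 49.5 RPM in WT. The level difference between these sets was -2.66 ± 0.07 with WT at -1.02.

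The change also differed with where in the window the U lay. The 386 positions with more U in the first 5 bases of the window changed by -0.37 ± 0.10 relative to the region median, and the 400 with more U in the last 5 by -0.16 ± 0.07. Their levels were close, at -0.51 ± 0.05 and -0.48 ± 0.09. The 145 positions with equal U in both parts changed by -0.26 ± 0.13. The last base was not held equal in this comparison, and the change differed with it, from -0.13 ± 0.08 for U to -0.56 ± 0.13 for A. Place of the U and last base were therefore not told apart.

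The window was then slid along the transcript while the 5-of-10 rule was kept. The level difference was lowest when the U-rich window ended 1 base before the RNA 3′ end (offset -1), with a mean of -0.65 ± 0.11, and the replicates had their lowest values at offsets -2, -1 and -2. The difference in change from WT was lowest at the same offset, -0.40 ± 0.12. Both were much smaller once the window had moved by about its own width. At offset -5 the level was -0.36 ± 0.09 and the change -0.28 ± 0.09, and at offset -10, where the window no longer shares a base with the original, they were -0.04 ± 0.03 and 0.05 ± 0.04. On the other side, at offset 5, they were -0.32 ± 0.04 and -0.12 ± 0.04, and at offset 10, where the U-rich bases had not yet been transcribed, -0.04 and 0.08. Farther out the level did not stay near 0. All 3 replicates were below 0 at offset 22 (-0.17 ± 0.02) and above 0 at offset -24 (0.15 ± 0.01). The WT level fell from 0.04 at offset -3 to a local low of -0.21 at offset 0, with -0.16 at offsets -1 and 1 and -0.13 at offset 3. This was not the lowest value of the WT level. It stayed below 0 up to offset 28, with -0.22 at offset 9, and its lowest value over the scan, -0.27, was at offset 18.

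**Figure D4:**
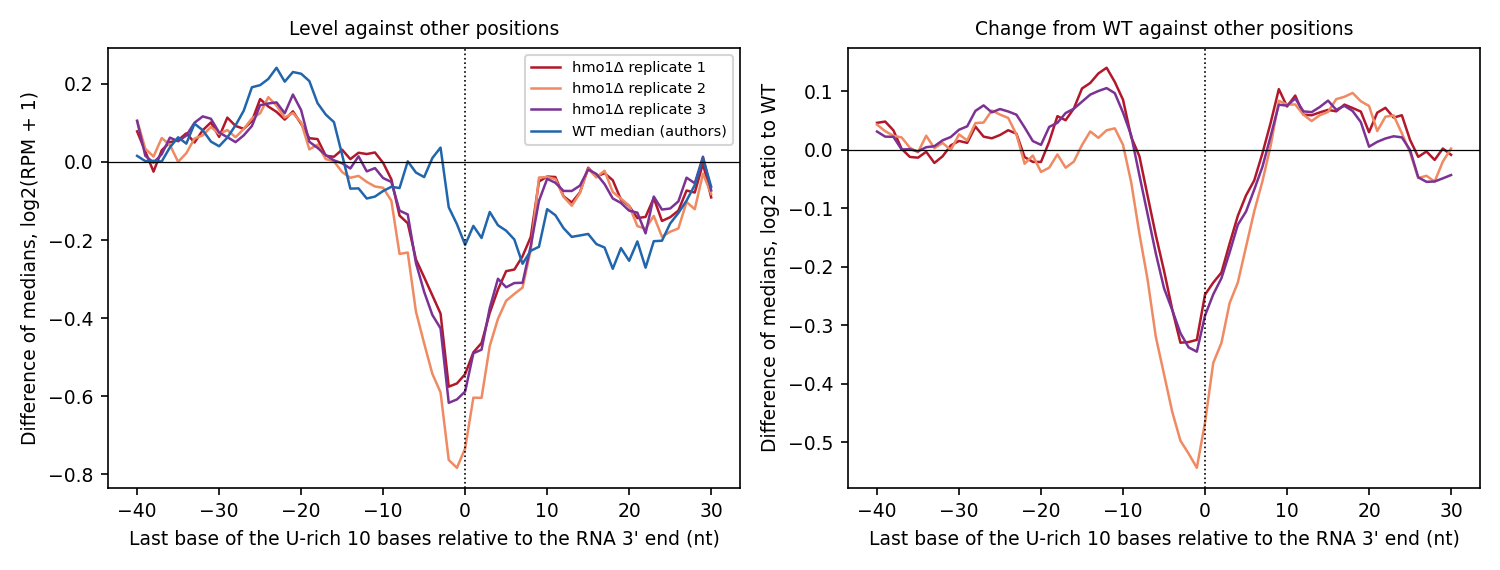
Difference between positions assigned to a U-rich 10-base window and all other positions of the region, as the last base of the window is moved from -40 to 30 nt relative to the RNA 3′ end. Left, level, with the *hmo1Δ* replicates in red, orange and purple and the WT median in blue; right, log2 ratio to WT. The replicate lines dip to between -0.78 and -0.58 at offsets of -2 to -1 and the lowest value of the WT line, -0.27, is at offset 18.

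Among the 69 stretches of 5 or more positions, 21 were above WT in all replicates by summed occupancy, 37 below and 11 mixed. Of 26 in the spacers 19 were above and 3 below, and of 41 in 18S or 25S 2 were above and 34 below. No stretches of other sequence were drawn for comparison, and single positions of other sequence were also mostly above WT in ITS1, ITS2 and ETS2 (83.0 to 87.4%). In ETS1 50.2% of such single positions were above. In 18S 34.5% were above and 47.1% below, and in 25S 43.9% were above and 35.1% below. Shares of single positions are not the same measure as sums over stretches.

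The longest stretch, 41 positions from 658 to 698 at the end of ETS1, averaged 18.1, 18.5 and 16.3 RPM per position in the replicates against 11.4 in WT, a log2 change of 0.63 ± 0.10. The 20-position stretch from 65 to 84, near the start of ETS1, moved the other way. It averaged 22.6, 17.5 and 17.7 RPM per position against 29.4 in WT, a change of -0.62 ± 0.21. The 32 positions from 6636 to 6667, across the 3′ end of 25S, averaged 379.5, 248.5 and 384.2 RPM against 353.2 in WT, with replicate 2 below WT and the other replicates above. The other stretches of 5 or more positions with high occupancy were ITS2 3022 to 3027, just after 5.8S, with 498.2, 385.9 and 480.6 RPM per position (WT 363.0), and 25S 6555 to 6560, with 274.2, 191.7 and 276.0 RPM (WT 332.5).

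Among stretches of 5 or more positions, those with the largest rise were in ETS2 and ITS2. The AU-rich stretch from 6775 to 6794, after T1, averaged 5.34, 3.50 and 4.29 RPM per position against 1.46 in WT, a log2 change of 1.56 ± 0.30. These values are low, since a count of 0 allows up to 1.51 RPM in replicate 2. The 80 positions after T1 that close no U-rich stretch changed by 1.75 ± 0.22. In ITS2, 3090 to 3095 had 67.1, 69.6 and 66.8 RPM against 26.3 (1.37 ± 0.03), and 3122 to 3126 had 79.9, 87.1 and 78.7 RPM against 34.8 (1.24 ± 0.08). Those with the largest fall were in 18S. Positions 833 to 838 had 121.0, 90.2 and 114.1 RPM against 192.7 in WT (-0.84 ± 0.22). Positions 1616 to 1625 had 89.7, 78.9 and 89.6 RPM against 151.1 (-0.81 ± 0.11), and 1887 to 1891 had 95.02, 91.5 and 83.6 RPM against 157.6 (-0.81 ± 0.10).

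Uninterrupted runs of U did not behave alike. At 3 of the 5 runs shown, occupancy in *hmo1Δ* was lower inside the run than in the 10 positions before it. The run of 8 U in ITS2 (3097 to 3104) averaged 48.3, 45.9 and 43.4 RPM per position after 98.6, 99.7 and 95.7 RPM in the 10 positions before it. The WT median went from 39.2 to 23.4 RPM across the same step. At the 7 U of ITS2 (3182 to 3188) the values were 25.7, 21.6 and 23.7 RPM after 68.5, 81.2 and 72.7 RPM (WT 10.4 after 18.1), and at the 6 U of ETS1 (665 to 670) 21.3, 22.3 and 18.8 RPM after 55.2, 62.8 and 59.3 RPM (WT 17.4 after 38.2). Relative to WT the positions before these 3 runs rose by 1.32, 2.03 and 0.63 on the log2 scale and the runs themselves by 0.97, 1.19 and 0.26.

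The other runs showed no such step. The 7 U of ITS1 (2528 to 2534) had 45.6, 40.5 and 37.7 RPM, at the level of the 10 positions before (45.7, 40.8 and 40.8 RPM), and occupancy dropped only after the run, to 24.6, 20.7 and 23.0 RPM. In WT it was 13.4 RPM in the run and 23.6 RPM after it. The 7 U of 18S (1754 to 1760) were higher than what came before, with 219.1, 243.8 and 211.9 RPM after 157.7, 179.0 and 148.0 RPM. They were below WT, at 265.4 RPM, in every replicate, while the 10 positions before them were above it (WT 96.3 RPM).

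Single positions spanned a wide range. The highest were 2 neighbours at the 3′ end of 25S, whose last base is 6647. Position 6646 held 2258, 1683 and 2215 RPM (WT 3797) and 6645 held 1967, 1285 and 1830 RPM (WT 2057). The share of mature rRNA at these positions was not tested. Without the first and last 10 positions of each region the pooled level difference was -0.62. The third was 6662 in ETS2, with 1737, 993.8 and 1841 RPM (WT 1012), where replicate 2 fell just below WT and the others rose above it.

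The single positions with the largest rise and the largest fall, among those with at least 20 RPM in WT, are shown with 19 bases before and 10 after and the position in capitals.
ITS1 2728: caacacacuguggaguuuuCauaucuuugc
ITS2 3122: uuccaaagagagguuucucUgcgugcuuga
ETS1 293: cagcgaaggauuugguggaUuacuagcuaa
ETS1 580: gaaaaagcaauuuuucuggAauuucagcug
ETS1 532: guguaaaagcuuuuugaacAgagagcauuu
ETS1 581: aaaaagcaauuuuucuggaAuuucagcugu
ITS1 2728 rose from 21.5 RPM in WT to 111.3, 124.0 and 110.7 RPM, 5.16-fold on the RPM + 1 scale. ITS2 3122 rose from 20.8 to 104.6, 114.9 and 96.4 RPM, and ETS1 293 from 28.6 to 105.4, 135.6 and 108.9 RPM. The falls were all in ETS1, and all 3 positions ended in A a few bases after a run of U. Position 580 had 6.22, 10.6 and 7.83 RPM against 62.9 in WT, 0.141-fold on the RPM + 1 scale. Position 532 had 23.2, 21.2 and 26.3 RPM against 127.4, and 581 had 5.13, 6.05 and 3.91 RPM against 25.4. These 6 were chosen for their distance from WT with all replicates on that side.

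T1 is the main terminator of the gene, and 17 positions from 30 before to 30 after it, T1 included, close a U-rich stretch. T1 itself, with 7 U in its window, held 302.1, 188.0 and 317.8 RPM against 181.0 in WT. Replicate 2 was near WT and the others were above, a log2 change of 0.53 ± 0.42. The 10 positions just before T1 were low until the last one. Their median was 8.24, 6.30 and 6.58 RPM (WT 5.24), and position 6738, next to T1, reached 68.1, 45.9 and 71.2 RPM (WT 47.8). By summed occupancy these 10 changed by 0.37 ± 0.23 on the log2 scale, and the 20 other positions within 30 before T1 by 1.28 ± 0.07.

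Past T1 all 39 U-rich-stretch positions were low, with at most 17.0, 17.6 and 20.6 RPM in the replicates and 9.56 in WT. Their summed occupancy was 188.4, 118.4 and 160.1 RPM against 64.6 in WT, a log2 change of 1.24 ± 0.34, and 30 of the 39 were above WT in every replicate. The 80 other positions after T1 changed by 1.75 ± 0.22, and 70 of them were above WT in every replicate. Many values here lay near the limit that a count of 0 allows, with medians of 3.24, 1.51 and 2.49 RPM at the U-rich-stretch positions, so single positions past T1 were not separated from each other at this depth.

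**Figure D5:**
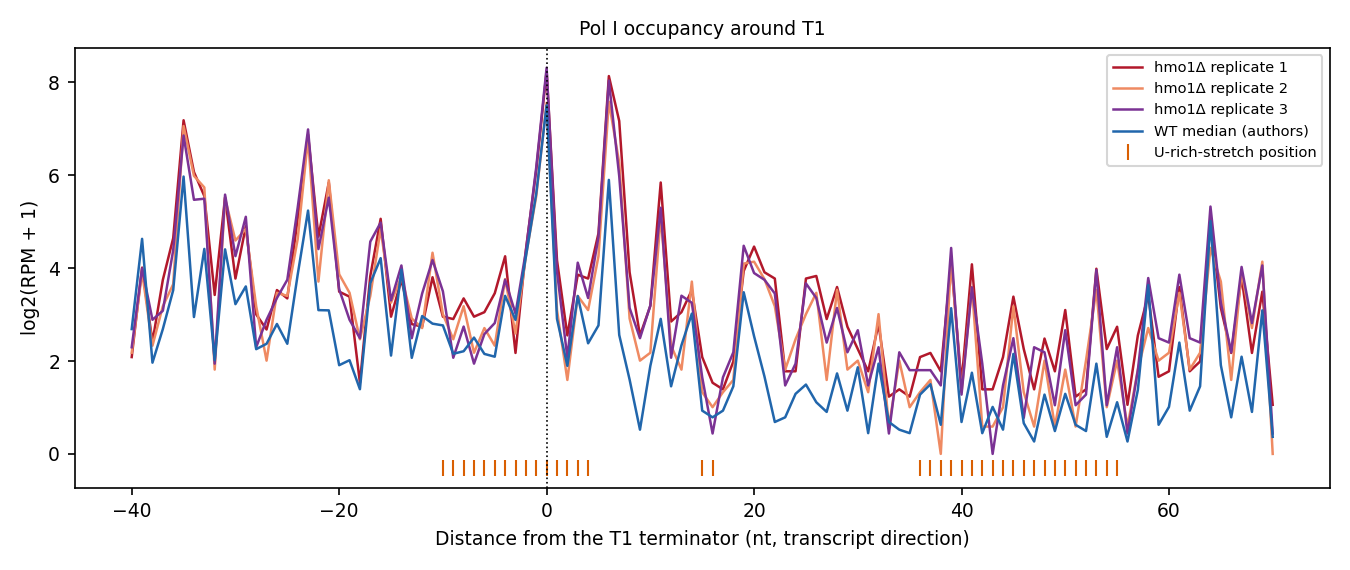
Occupancy as log2(RPM + 1) by distance from T1, in nt along the transcript, for the *hmo1Δ* replicates (red, orange, purple) and the WT median (blue), with orange ticks under positions that end a U-rich stretch. T1 stands at 188.0 to 317.8 RPM in the replicates and 181.0 RPM in WT, and the ticks before it sit under a low stretch that rises at the last position.

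The replicates ranked the U-rich-stretch positions alike. As a description across 931 positions that share libraries and bases, Spearman's rho between replicates was 0.981 to 0.991, and with the WT median 0.911 to 0.929. At the other 5918 positions it was 0.973 to 0.984 between replicates and 0.809 to 0.866 with WT. The median coefficient of variation over replicates was 13.1% at U-rich-stretch positions and 10.4% at the others.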

How the data were processed

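The authors deduplicated reads by UMI, trimmed adaptors, aligned to assembly R64 and counted RNA 3′ ends per position; the submitters' processing notes name bcl2fastq 2.20.00, cutadapt 3.4, STAR 2.7.1a, SAMtools 1.6, bedtools 2.28.0 and R 4.0.2. Reads from the repeated rDNA copies cannot be told apart. They deposited RPM, scaled to 1000000 over positions 1 to T1 (6739). Deposited columns of the authors' comparisons (p-values, ratios, mean changes, confidence intervals, coefficients of variation) were not used, nor were 3 columns of WT replicates from another series.

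Medians of log2(RPM + 1) were compared within 7 regions per replicate with Python 3.11.15, numpy 2.4.6 and pandas 2.3.3, and the code was tested on simulated data. With a single group of samples no count model was possible. Named were the longest stretches, the highest, the most raised and the most lowered among stretches of 5 or more positions and among single positions (the latter, for changes, with at least 20 RPM in WT), the longest U runs and those within 30 of T1. Members and lists were chosen with earlier results of these data known. Alternatives changed the window, threshold, comparison positions, low values, pseudocount, scaling, regions and replicates.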

Additional observations from a re-analysis of the deposited data

How the results depend on the processing

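The pooled level difference (-0.62) kept its sign under all 24 alternatives and the difference in change (-0.33) under 23 of 24. Counting bases 10 to 19 before the position gave -0.037 for the level, 0.052 for the change, 0.027 for 5 U minus 4 U (-0.21 otherwise) and 283 positions below WT. It reversed the level in 18S (0.14), 25S (0.17) and ETS2 (0.94) and the change in ETS1 (0.17), 5.8S (0.39), ITS2 (0.35) and ETS2 (0.31). The level was -0.75 against others at least 10 positions from any U-rich-stretch position, -0.49 without positions under 5 RPM in WT, -0.42 with 1 position in 10, -0.93 in the 4 spacers and -0.40 in the 3 mature rRNAs. Equal G number, added after the data were seen, gave -0.30 for the level and -0.19 for the change. With 4 or more U 653 of 1892 positions (34.5%) were above and 895 (47.3%) below WT, and with 6 or more U 138 (35.3%) and 167 (42.7%) of 391, close to the shares with 5 or more. The level in ETS2 reversed with 6 or more U (1.02; 5.8S 0.45), without positions under 5 RPM in WT (1.63) and without those after T1 (1.04). The change in 5.8S, with 12 positions, reversed with 6 or more U (0.21), 1 position in 10 (0.046) and stretches of 5 or more only (0.14, added). Apart from fewer or other positions being compared, the cause was not tested. Of 147 regional values each for level and change, 7 reversed and 20 more moved over 1.5 times with their sign kept, and levels ranged from -1.70 to -0.38 in ETS1 and from -1.15 to -0.12 in ITS2. Leaving out any replicate reversed none of these. No paired analysis was possible because only *hmo1Δ* samples carry replicate numbers here.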
